A study of Homo sapiens with 6 samples.

Results

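Among the CTCF binding sites listed in neurons made from human stem cells, 6863 were of medium strength and lay deep inside protein-coding genes. They were chosen by the authors' own peak values. A peak was taken if its width differed from 800 bp, its signal value was under 200, and its summit lay inside a protein-coding gene and more than 5 kb from both ends of every protein-coding gene. They made up 15.7% of the 43644 CTCF peaks on chromosomes 1 to 22 and X. Signal value, width and distance from gene ends are therefore descriptions of the choice and were not tested.

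CTCF is a zinc-finger protein that binds an oriented DNA motif. Cohesin complexes that extrude chromatin loops are halted at bound CTCF, which gives loops their anchors and insulates enhancers from promoters on the other side. Inside genes, CTCF is known from work on promoter choice, as in the clustered protocadherins, and on the inclusion of alternative exons, where bound CTCF can slow RNA polymerase. H3K27ac is the acetylated form of histone H3 found at active promoters and enhancers.

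Chromatin immunoprecipitation with sequencing (ChIP-seq) was done on neurons that had been differentiated from neural progenitors of the induced pluripotent stem cell line KOLF2.1J, an established human line. There were 2 CTCF libraries, 2 H3K27ac libraries and 2 input libraries, with no treatment and no second genotype, and all from 1 line. The deposited data were 1 CTCF list and 1 H3K27ac list, each covering both replicates together. No value of a single replicate was available for analysis, no spread between replicates could be computed, and the read depth behind each peak is unknown. Shares below carry 95% Wilson intervals, differences of shares Newcombe intervals and densities exact Poisson intervals. All of them cover counting error only, and peaks are not replicates, so no p-value is given.

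The cell type was checked against marker genes by asking whether the gene overlapped an H3K27ac peak. All 15 neuron markers did, and so did all 11 neural progenitor markers and 7 of 8 astrocyte markers. The counts were 3 of 8 oligodendrocyte markers, 3 of 7 pluripotency markers and 2 of 12 liver and muscle markers, beside 13776 of all 19974 protein-coding genes. Progenitor and astrocyte genes were thus marked about as often as neuronal ones, so these counts do not set neurons apart from them.

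Sequence was at hand for the RefSeq windows around annotated gene starts (250 bases before to 50 after), with none on chromosome 8. The summits of 138 members lay inside such windows. These are alternative starts within a longer gene, since the outer ends of the genes had been kept away by the rule, or starts of long non-coding RNAs. The member and window pairs numbered 150, of which 126 were starts of protein-coding genes and 24 starts of long non-coding RNAs. A core CTCF consensus of 12 bases, searched on both strands with at most 1 mismatch, was found in 41 of the 150 windows, or 27.3% (20.8 to 35.0%). It was found in 4.94% of all 34961 RefSeq promoter windows (4.71 to 5.17%) and in 5.47% of the 15909 that overlapped H3K27ac (5.13 to 5.83%). In the 73 windows that held a strong intragenic summit, with a signal value of 200 or more, the share was 31.5% (22 to 42.9%), and this interval covered the members' share. The core was close to the summit: its middle was a median of 9 bp away, and within 50 bp in 37 of the 41 windows. The core pointed along the gene in 22 windows and against it in 19. Some members had windows on both strands, as at CFAP58 and ZNF398, so the same core was counted in either direction. The windows are therefore not all independent, which the interval does not allow for.

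**Figure D1:**
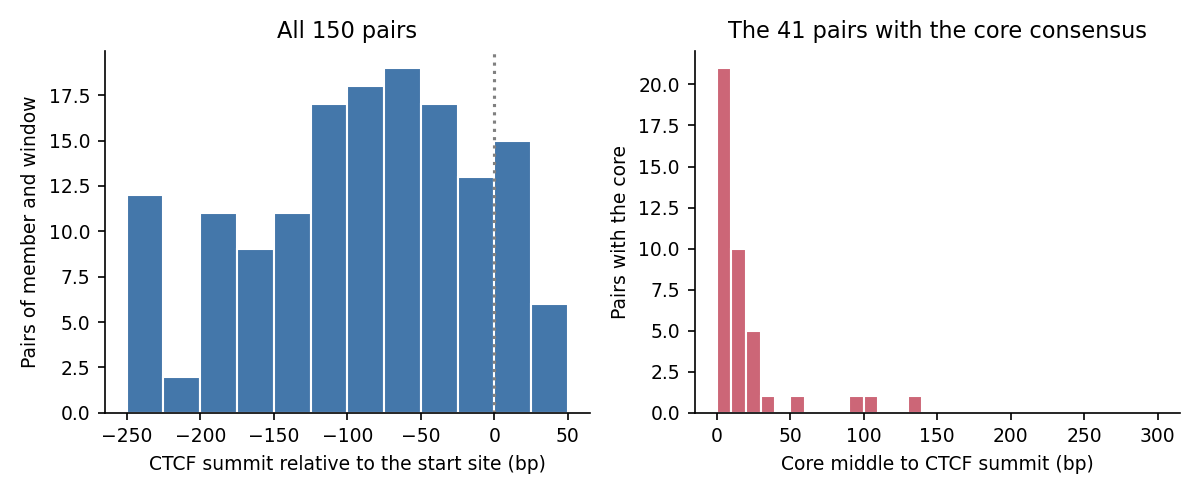
Left: position of the CTCF summit relative to the annotated start (bp, negative is upstream) for the 150 pairs of member and RefSeq window, as counts in bins of 25 bp. Right: distance (bp) from the middle of the core consensus to the summit in the 41 pairs with the core, in bins of 10 bp, where 37 pairs lie within 50 bp.

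The core was found without mismatch in 5 windows, 4 of them at a start of the member's own host gene. Those 4 windows are printed with 3 others, at neuronal or imprinted genes, chosen after their values were seen: BDNF, ROBO3 and GNAS. Each is the RefSeq sequence of GRCh38.p14 on the strand of the gene, 5′ to 3′, and the capitals mark the core consensus. SCN1A, a neuronal sodium channel, had the core along the gene at chr2:166127971-166128270 (minus strand). FAM199X had it along the gene at chrX:104166203-104166502 (plus strand). SLC14A2, a urea transporter, had it against the gene at chr18:45212745-45213044 (plus strand). ZNF814, a zinc-finger gene, had it against the gene at chr19:57888988-57889287 (minus strand). BDNF, the neurotrophin, had it against the gene with 1 mismatch at chr11:27701572-27701871 (minus strand). ROBO3, an axon guidance receptor, had it along the gene with 1 mismatch at chr11:124875932-124876231 (plus strand). GNAS, an imprinted gene for a G-protein subunit, had it against the gene with 1 mismatch at chr20:58852731-58853030 (plus strand).
SCN1A: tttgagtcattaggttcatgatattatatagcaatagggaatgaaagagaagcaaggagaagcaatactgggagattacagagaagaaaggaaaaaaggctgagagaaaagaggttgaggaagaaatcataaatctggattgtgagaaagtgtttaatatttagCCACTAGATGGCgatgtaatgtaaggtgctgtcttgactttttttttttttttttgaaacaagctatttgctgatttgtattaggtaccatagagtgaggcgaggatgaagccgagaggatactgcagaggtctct
FAM199X: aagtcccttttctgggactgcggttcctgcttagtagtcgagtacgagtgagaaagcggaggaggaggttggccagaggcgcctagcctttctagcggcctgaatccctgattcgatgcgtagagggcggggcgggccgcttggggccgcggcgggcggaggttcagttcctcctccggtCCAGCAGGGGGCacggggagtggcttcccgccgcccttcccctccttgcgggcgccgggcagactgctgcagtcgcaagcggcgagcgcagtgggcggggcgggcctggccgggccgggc
SLC14A2: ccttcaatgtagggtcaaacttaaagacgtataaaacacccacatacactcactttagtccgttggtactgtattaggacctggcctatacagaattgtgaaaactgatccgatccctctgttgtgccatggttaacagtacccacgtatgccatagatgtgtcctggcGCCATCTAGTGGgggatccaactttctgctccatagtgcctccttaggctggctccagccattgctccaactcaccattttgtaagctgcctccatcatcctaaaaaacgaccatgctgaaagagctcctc
ZNF814: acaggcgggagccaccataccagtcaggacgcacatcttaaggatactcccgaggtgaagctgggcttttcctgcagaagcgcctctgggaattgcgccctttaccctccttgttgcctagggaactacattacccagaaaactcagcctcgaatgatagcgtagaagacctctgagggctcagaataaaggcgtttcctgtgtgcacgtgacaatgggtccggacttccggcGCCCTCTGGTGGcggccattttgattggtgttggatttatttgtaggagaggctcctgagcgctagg
BDNF: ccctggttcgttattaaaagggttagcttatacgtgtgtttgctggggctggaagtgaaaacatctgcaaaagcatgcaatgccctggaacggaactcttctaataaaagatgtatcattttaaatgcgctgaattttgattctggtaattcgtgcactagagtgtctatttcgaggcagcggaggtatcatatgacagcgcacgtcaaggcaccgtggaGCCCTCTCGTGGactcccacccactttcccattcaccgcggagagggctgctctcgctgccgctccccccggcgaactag
ROBO3: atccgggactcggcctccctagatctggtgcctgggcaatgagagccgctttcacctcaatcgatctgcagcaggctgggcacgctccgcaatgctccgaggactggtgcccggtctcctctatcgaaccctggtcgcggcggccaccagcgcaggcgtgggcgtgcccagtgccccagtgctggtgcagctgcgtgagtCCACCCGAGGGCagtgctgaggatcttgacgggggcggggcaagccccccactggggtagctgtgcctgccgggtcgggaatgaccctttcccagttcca
GNAS: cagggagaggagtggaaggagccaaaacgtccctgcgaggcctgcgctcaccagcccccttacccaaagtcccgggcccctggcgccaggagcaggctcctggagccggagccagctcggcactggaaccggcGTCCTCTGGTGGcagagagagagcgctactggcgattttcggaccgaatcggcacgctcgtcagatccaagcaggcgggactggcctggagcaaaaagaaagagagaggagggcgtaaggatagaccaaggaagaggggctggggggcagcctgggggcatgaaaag

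In the SCN1A window the first base of the core lay 86 bases before the start and the summit 2 bp from the middle of the core. That member had a CTCF signal value of 129 and overlapped an H3K27ac peak with a fold enrichment of 13.9. SCN1A held 2 further members without H3K27ac, with signal values of 63.6 and 79.7. The BDNF summit also lay 2 bp from the middle of its core, with a signal value of 107 and an H3K27ac fold enrichment of 4.61. The other members in BDNF had signal values of 81.6, 189 and 128 and met no H3K27ac peak, so that in both genes the acetylated member was the one at the start. BDNF and SCN1A were themselves picked after their values were seen. The ROBO3 member combined a signal value of 162 with a fold enrichment of 27.1, and the FAM199X member 162 with 11.2. The ZNF814 member was among the weaker ones at 48.6 and overlapped H3K27ac at 17.7. The SLC14A2 member (signal value 129) and the GNAS member (signal value 199.896) had the core but no H3K27ac peak. A core within 50 bp of the summit thus occurred with and without acetylation at the start.

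The members themselves spanned signal values from 9.41 to 199.997, with a median of 110 and quartiles of 80.1 and 148. Among them 180 were under 50, and 21 of the 180 shared their interval with a stronger entry of the list, as a second summit. Of all members, 51 shared an interval with another CTCF entry. Their widths ran from 200 to 782 bp with a median of 388 bp, against 473 bp for the 2666 strong intragenic peaks. The −log10 q of 95.8% of the members was at the list's maximum, so it does not order them. The limit of 200 cut through a continuous range. Just inside it were peaks in GNA11 (199.997), GXYLT1 (199.962), BMERB1 (199.946), PTPRN2 (199.912) and GNAS (199.896), and just outside it peaks in ENDOU (200.038), ZFP64 (200.075), HSP90AA1 (200.116) and RORA (200.128). The lowest values belonged to peaks in ELL (9.41), TNIP1 (11.8), ZDHHC1 (12.2), TMCO6 (12.9) and CAPN2 (16.2).

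**Figure D2:**
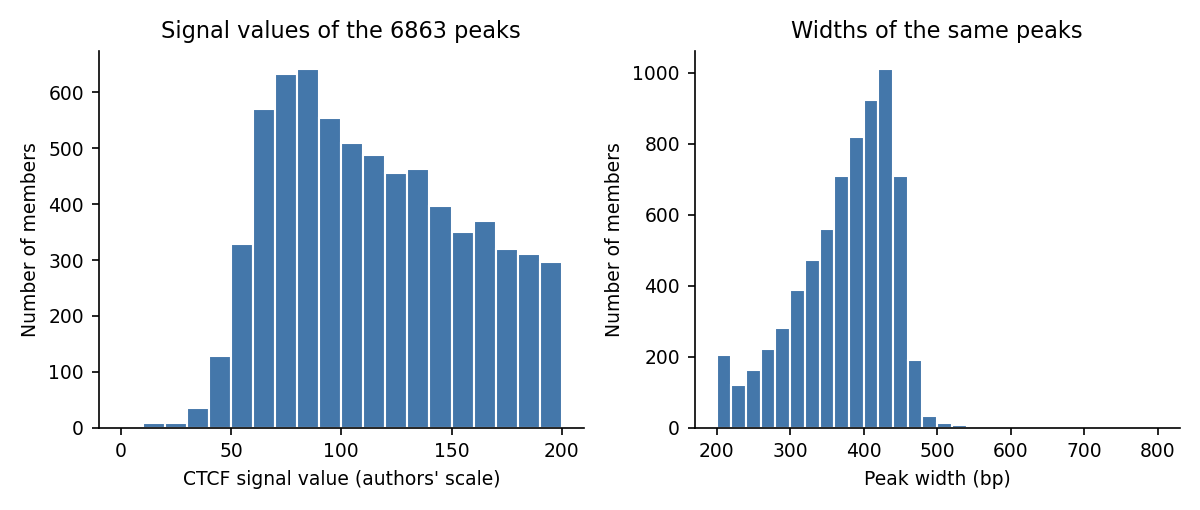
Number of members by CTCF signal value (left, authors' scale, bins of 10) and by peak width (right, bp, bins of 20). The signal values run up to the limit of 200 without a gap below it, and the median width is 388 bp.

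The choice did not use H3K27ac itself, which met few of these peaks. It did leave out summits near gene ends, and 21.0% of gene ends fell inside H3K27ac peaks, against 2.99% when moved by 10 kb. Comparisons with all CTCF peaks and with peaks near gene ends therefore carry the position rule, whose part was not tested. Of the 6863 members, 967 met an H3K27ac peak over 1 bp or more, or 14.1% (13.3 to 14.9%), whereas 28.1% of all CTCF peaks on the same chromosomes did. The H3K27ac peaks they met had a median fold enrichment of 6.69, with quartiles of 4.28 and 12.9, and 656 of them were above the median of that list (4.74). Medium peaks near gene ends overlapped far more often: 48.5% of 6255 did (47.3 to 49.8%), a difference of -34.4 percentage points for the members, and they were the higher group on 23 of 23 chromosomes. Medium peaks outside genes overlapped less often: 10.6% of 7059 did (9.91 to 11.4%), 3.48 points below the members (2.39 to 4.57), and the members were higher on 19 of 23 chromosomes. The intragenic peaks of 800 bp reached 23.4% of 4880 (22.2 to 24.6%), above the members on 23 of 23 chromosomes.

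Against strong peaks in the same kind of position the direction rested on how overlap was defined. By 1 bp of the interval, 19.9% of the 2666 strong intragenic peaks met H3K27ac (18.4 to 21.4%), a difference of -5.79 points for the members (-7.54 to -4.09), and the members were lower on 19 of 23 chromosomes. By the summit alone the order turned: 8.04% of members (7.42 to 8.71%) and 4.88% of strong peaks (4.12 to 5.76%) had the summit inside an H3K27ac peak, against 17.9% of all CTCF peaks, and the members were higher than the strong peaks on 23 of 23 chromosomes. Strong peaks were wider, and among peaks over 446 bp the members overlapped in 29.5% (n = 662) and the strong peaks in 20.7% (n = 2486). Of the 530 strong peaks that met H3K27ac, 130 did so at the summit, and of the 967 members, 552 did. The part of peak width in the difference was not tested beyond these width classes.

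Within the members the share with H3K27ac was 26.7% (20.7 to 33.6%) in the 180 peaks under 50, and 13.6%, 14.1% and 13.5% in the next 3 steps of 50 in signal value. Under the summit it went down from 21.1% in the weakest step to 9.20%, 7.71% and 5.16%. Past the limit, the share by 1 bp rose from 15.6% at 200 to 250 to 21.9% at 250 to 300 and 26.9% (23.3 to 30.9%) above 300, whereas the summit share was 4.61%, 4.63% and 5.92%. Median width grew from 266 bp in the weakest step to 494 bp in the strongest.

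**Figure D3:**
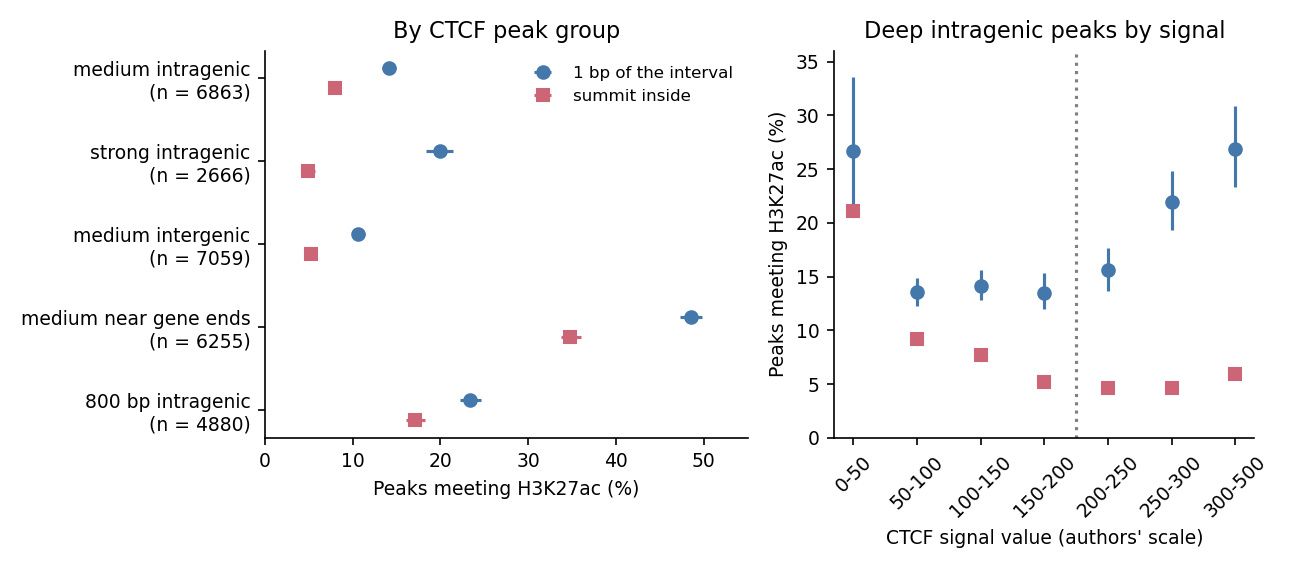
Left: percent of CTCF peaks that meet H3K27ac in 5 groups, by 1 bp of the interval (circles) or by the summit (squares), with 95% Wilson intervals. Right: the same for peaks deep inside genes by signal value, with intervals for the circles only and a dotted line at the limit of 200; past the line circles go from 15.6% to 26.9% and squares from 4.61% to 5.92%.

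Members at annotated starts inside the genes met H3K27ac more often than the others. The distance to the nearest RefSeq start was taken for the 5628 members whose host genes were all in the promoter table. Of these, 328 lay within 1 kb of a start, or 5.83% (5.25 to 6.47%), and 65.9% of the 328 overlapped H3K27ac (60.6 to 70.8%). Of the 5300 others, 10.9% did (10.1 to 11.8%). The H3K27ac peaks had a median fold enrichment of 12.8 near a start and 5.60 elsewhere, while the CTCF signal values had medians of 98.3 and 111. Strong intragenic peaks split in the same way, with 59.0% of 134 near a start and 17.2% of 2018 elsewhere.

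Of the 10 members chosen for the highest H3K27ac fold enrichment, 9 lay within 1 kb of a RefSeq start. All 10 overlapped H3K27ac by that choice, so they add nothing to the comparison of shares. At the top, with an H3K27ac fold enrichment of 68.8, was a member in ACYP2, an acylphosphatase gene, on chromosome 2 from 54115287 to 54115588, with a CTCF signal value of 52.7. Next came members in MATR3, which encodes a nuclear matrix RNA-binding protein (fold enrichment 64.3, CTCF signal value 67.1), in BRWD1 (62.0 and 40.4) and in LUC7L2, a splicing factor gene (59.9 and 48.4). The exception was a member in CLASP1, whose product stabilises microtubule plus ends, on chromosome 2 from 121530889 to 121531289. Its nearest start in the promoter table was 118 kb away, and distances to starts missing from that table were not measured. This member had a fold enrichment of 55.6 and a signal value of 123, the highest CTCF value of the 10. The others were in COX7A2L (53.8 and 79.2), KANSL1 (52.2 and 83.3), NREP (52.0 and 85.0), PMVK (50.3 and 103) and PHLDB2 (50.1 and 28.5).

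For the 5896 members without H3K27ac the nearest H3K27ac peak was a median of 18.2 kb away, with quartiles of 7.05 and 43.7 kb, and 484 of them were over 100 kb from any. The median was 16.7 kb for the 2136 strong intragenic peaks without H3K27ac. The nearest other CTCF peak was a median of 16.7 kb from a member. Another CTCF peak lay within 10 kb of 35.9% of the members (34.8 to 37.1%), of 44.3% of strong intragenic peaks (42.4 to 46.2%) and of 34.5% of medium peaks outside genes (33.4 to 35.6%). The intervals of members and medium peaks outside genes meet, while strong peaks had a close neighbour more often.

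Long genes offer more sequence to the rule, so numbers of members were set against the length of gene interior, the part of a gene more than 5 kb from every gene end. There were 6.33 members per Mb over 1084 Mb of interior (6.18 to 6.48). Medium peaks between genes numbered 4.30 per Mb (4.20 to 4.4) when all sequence between the outermost genes of a chromosome was counted, which includes centromeres. In intergenic stretches of at most 1 Mb they numbered 6.21 per Mb (6.05 to 6.37), and this interval meets that of the members. Chromosome 19 had the highest density, 9.92 per Mb (8.57 to 11.4), followed by chromosome 22 (8.73) and chromosome 17 (8.63). Chromosome X had the lowest, 5.01 per Mb (4.37 to 5.72), an interval that covers the values of chromosomes 13 (5.41), 8 (5.42) and 2 (5.65). The share with H3K27ac ran from 8.70% on chromosome 21 to 20.7% on chromosome 19.

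Density fell with gene length. It was 9.51 per Mb (8.96 to 10.1) in genes of 10 to 50 kb, 6.62 (6.30 to 6.95) in genes of 100 to 200 kb and 4.33 (4.08 to 4.60) in genes of 500 kb or more. Strong intragenic peaks fell from 4.80 to 1.34 per Mb over the same range. For 11422 genes with an interior and a known strand, density also went down with distance from the 5′ end, from 7.77 per Mb (7.31 to 8.25) at 5 to 20 kb to 4.23 (3.81 to 4.69) beyond 500 kb. In genes of 200 kb or more, however, it was 5.93 (4.83 to 7.20) at 5 to 20 kb and between 5.26 and 5.48 from 20 to 500 kb, with intervals that meet. The slope up to 500 kb was thus seen when short and long genes were counted together. Members at 5 to 20 kb overlapped H3K27ac in 19.2% (16.9 to 21.6%), against 13.3% at 20 to 50 kb (11.6 to 15.4%).

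**Figure D4:**
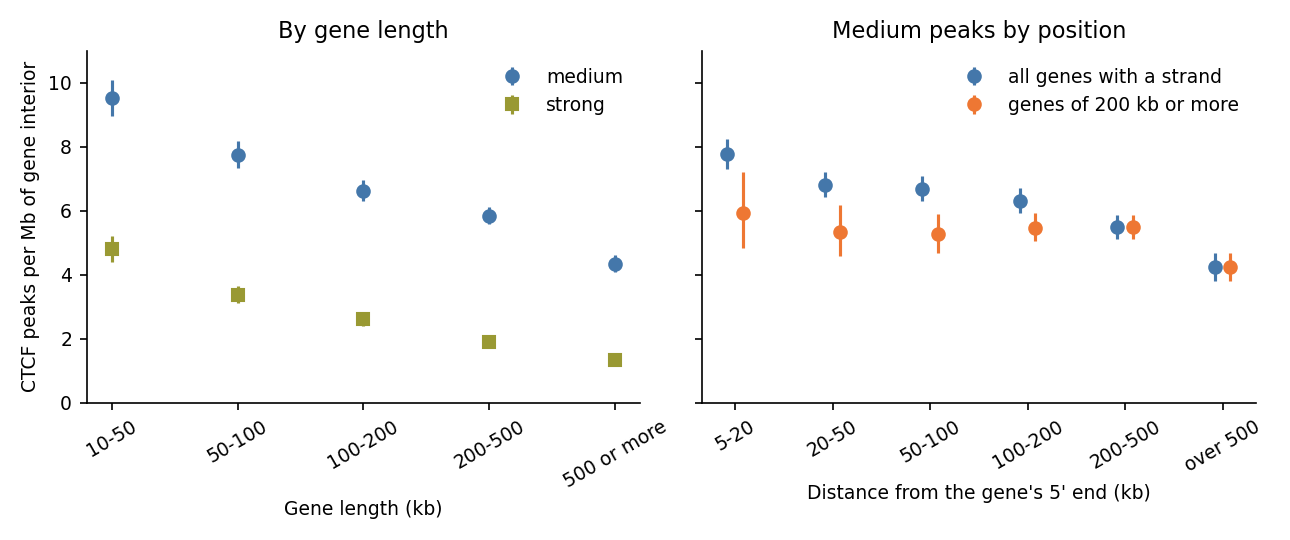
CTCF peaks per Mb of gene interior with 95% Poisson intervals. Left: medium peaks (circles) and strong peaks (squares) by gene length, both falling. Right: medium peaks by distance from the 5′ end, over all genes with a strand and over genes of 200 kb or more, where values up to 500 kb stay between 5.26 and 5.93.

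An acetylated gene start went with little difference in the density of members. The 7810 genes with H3K27ac within 1 kb of their 5′ end had 6.25 members per Mb (6.06 to 6.45), and the 3612 genes without it 6.61 (6.30 to 6.93). The former were denser on 9 of the 22 chromosomes with strands in the promoter table, which had none for chromosome 8. Their members overlapped H3K27ac in 14.5% (13.5 to 15.6%) and in 13% (11.4 to 14.6%), intervals that meet. For strong intragenic peaks the densities were 2.31 (2.20 to 2.43) and 2.72 (2.53 to 2.93), intervals that do not meet. Genes with an acetylated start had a median length of 45.6 kb and those without it 37.7 kb. Density fell with gene length, and the part of length here was not tested.

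At least 1 member was held by 4173 genes, or 29.5% of the 14145 genes with an interior. Most of these genes held few: 2618 had exactly 1 member, 1402 had 2 to 4, and 153 had 5 or more. RBFOX1, a neuronal splicing regulator, had the most with 16, in 2.46 Mb of interior on chromosome 16. Their signal values ran from 60.1 to 196 with a median of 137, and 0 of the 16 overlapped H3K27ac. DLG2, a postsynaptic scaffold gene, held 14 members, as did PDE4D, which encodes a cAMP phosphodiesterase, and 1 member of each overlapped H3K27ac. Their densities were 6.49 per Mb for RBFOX1, 6.47 for DLG2 and 9.07 for PDE4D, beside 6.33 over all genes and 4.33 over genes of 500 kb or more, the class they belong to.

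Other genes were denser. GSE1, on chromosome 16, held 14 members in 0.497 Mb, or 28.2 per Mb, together with 9 strong peaks, and 5 of its members overlapped H3K27ac at fold enrichments of 3.58 to 11.2. DST, which encodes the cytoskeletal linker dystonin, held 11 members and 0 strong peaks, at 22.6 per Mb. Of the DST members 3 overlapped H3K27ac, at fold enrichments of 25.8, 18.7 and 9.46. The last 2 of these lay 0.341 and 0.05 kb from RefSeq starts. ERC2 of the presynaptic active zone, IQCJ-SCHIP1 and the adhesion gene NTM held 10 members each. CTNNA2, the neuronal alpha-catenin, and ROBO2, a Slit receptor, held 9 each, of which 2 and 2 overlapped H3K27ac.

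The densest genes with at least 5 members were short. They were CROCC, for the ciliary rootlet protein (102 per Mb), MRPL23, for a mitochondrial ribosomal protein (86.8), SYT7, a synaptic calcium sensor (77.3), ZNF185 (76.4) and ELL, a transcription elongation factor gene (72.0), with 5 members each. CROCC has near-identical pseudogene copies, so reads could have been shared among them and its values are uncertain. In ELL, 2 of the 5 members were summits of 1 interval, with signal values of 169 and 9.41. In ZNF185 the member with the highest value, 178, lay 0.104 kb from a RefSeq start and overlapped H3K27ac at a fold enrichment of 10.3.

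**Figure D5:**
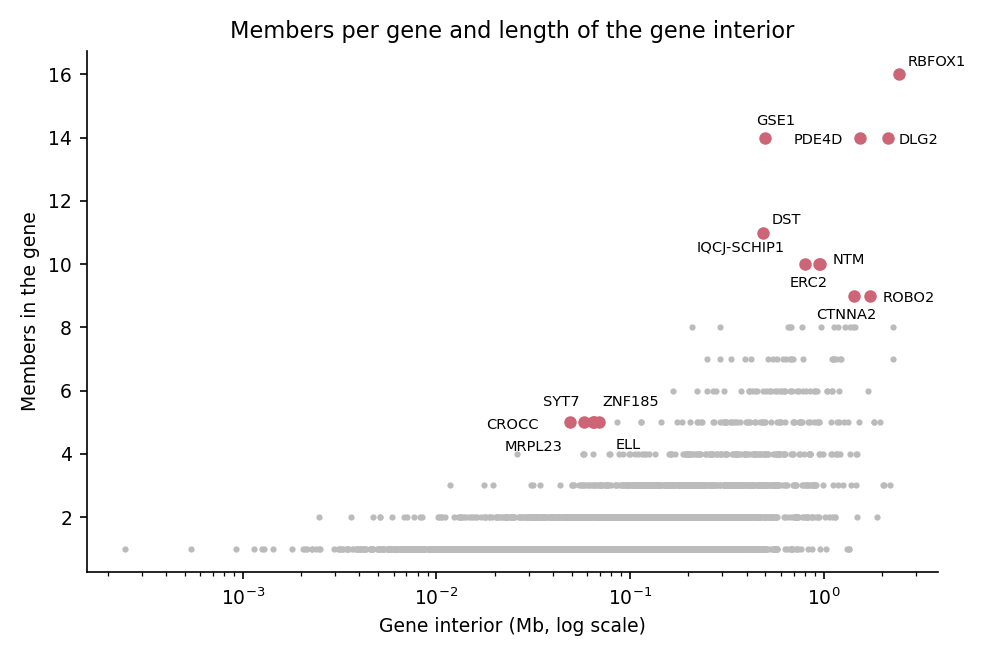
Members per gene (vertical axis) against gene interior (Mb, log scale) for the 4173 genes with a member; the red, named points are the 10 genes with the most members and the 5 densest with at least 5 members. RBFOX1 has the most, with 16, and GSE1 reaches 14 in 0.497 Mb.

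The members of MRPL23 lay in and beside an imprinted gene. As annotated in GRCh38.p14 the gene runs on chromosome 11 from 1947332 to 2014944 and contains H19 (1995176 to 2001266), a maternally expressed non-coding RNA. H19 and IGF2 are the textbook case of CTCF insulation: CTCF binds the control region beside H19 on the unmethylated maternal allele. Of the 5 members in MRPL23, 2 lay inside H19, with signal values of 94.3 and 50.5. A further 2 lay 0.950 and 1.33 kb beyond its higher-coordinate end, on the IGF2 side, from 2002001 to 2002434 and from 2002427 to 2002781, with signal values of 102 and 105. None of the 5 overlapped an H3K27ac peak.

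Of 15 imprinted genes with an interior, 5 held members, or 33.3%, against 29.5% of all genes. The 8 members came to 6.02 per Mb (2.60 to 11.9), an interval that covers the 6.33 of all genes. GRB10, a growth-factor adaptor gene, had 3, with signal values of 151, 80.9 and 88.3. The last lay 0.444 kb from a RefSeq start and overlapped H3K27ac at 9.93. GNAS had 2, and neither overlapped H3K27ac. Which allele was bound cannot be read from these lists.

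The neuronal gene lists, pooled, held a smaller share of the members than of the interior. Over 4 lists together (cell adhesion of the neurexin, neuroligin and contactin families, axon guidance, ion channels, and glutamate and GABA receptors), 89 of 120 genes with an interior held 251 members. That is 3.66% of all members in 4.70% of the interior, or 4.92 per Mb (4.33 to 5.57), against 6.33 over all genes. These genes were long, with a median of 352 kb, and all genes of 200 to 500 kb had 5.83 per Mb (5.57 to 6.11). The receptor list had 3.83 per Mb (2.77 to 5.16) and the adhesion list 3.85 (2.90 to 5.03). Axon guidance genes had 5.50 (4.30 to 6.94) and ion channels 6.47 (5.15 to 8.01). Blood and muscle genes, listed for their roles in those tissues, had 4.18 (2.68 to 6.22). DMD alone made up 2.21 of the 5.74 Mb of interior in that list, with 3 of its 24 members. The list was not counted without DMD. The intervals of the adhesion, receptor and blood and muscle lists meet. H3K27ac met 13.9% of the 251 neuronal members (10.2 to 18.8%), against 14.1% of all members. The share was 22.5% in axon guidance genes (14.4 to 33.5%) and 11.6% in receptor genes (5.07 to 24.5%). It was 10.8% in ion channel genes (5.81 to 19.3%) and 9.26% in adhesion genes (4.02 to 19.9%). In the blood and muscle genes it was 8.33% (2.32 to 25.8%), and all these intervals meet.

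Within these lists CNTNAP2, of the contactin-associated proteins, held 7 members in 2.29 Mb and CADM2, an adhesion gene, 6 in 1.11 Mb, and 0 of the 13 overlapped H3K27ac. The Slit receptors ROBO2 and ROBO1 held 9 and 7, of which 2 and 1 overlapped H3K27ac. CACNA1A, which encodes a presynaptic calcium channel, held 7 in 0.290 Mb with signal values of 56.9 to 165, whereas RYR2, an intracellular calcium release channel, held 7 in 0.782 Mb, and neither gene had an acetylated member. The glutamate receptor gene GRID1 held 5, and 0 of them overlapped H3K27ac. In the blood and muscle list DMD held 3 in 2.21 Mb and PAX5 held 3 in 0.191 Mb.

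The microtubule and cytoskeleton list had 65 members in 19 of 28 genes, or 10.6 per Mb (8.15 to 13.5). Without DST the value was 9.53 (7.16 to 12.4). The median length of these genes was 175 kb, and all genes of 100 to 200 kb had 6.62. Of the 65 members, 24.6% overlapped H3K27ac (15.8 to 36.3%), against 14.1% of all members. After DST, the list's next gene was ANK2, an ankyrin that ties membrane proteins to the cytoskeleton, with 8 members, of which 1 overlapped H3K27ac.

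MAPT, the tau gene, whose regulatory elements the study set out to find, held 1 member, on chromosome 17 (45949044 to 45949429). Its signal value was 88.2, below the members' median of 110, and it met no H3K27ac peak. It was 50 kb from the nearest protein-coding gene end and 53.0 kb from the nearest other CTCF peak, further than the members' median of 16.7 kb.

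The list of chromatin and transcription regulators had 70 members at 7.30 per Mb (5.69 to 9.22), of which 27.1% overlapped H3K27ac (18.1 to 38.5%), against 14.1% of all members. The list of RNA-binding and splicing genes had 46 at 6.08 per Mb (4.45 to 8.11), of which 28.3% did (17.3 to 42.5%). In AUTS2, 3 of 8 members overlapped H3K27ac, with fold enrichments of 4.26, 6.29 and 28.1. In ARID1B, a subunit gene of the BAF remodelling complex, 3 of 6 did, and 2 neighbouring members with signal values of 50.4 and 88 met an H3K27ac fold enrichment of 47.7. In CELF4, a neuronal RNA-binding protein gene, 3 of 4 did, whereas in RBFOX1 of the same list 0 of 16 did. The genes for CTCF and cohesin themselves had 5 members in 4 of 13 genes, 2 of them in PDS5B and 1 in NIPBL, which encodes the cohesin loader.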

How the data were processed

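The 2 deposited lists have no header, and each covers both replicates of its antibody. Per the submitters' processing notes, the build is hg38 and cutadapt 1.16 was used; the aligner, peak caller and settings are not given in the sources used here. The CTCF signal value is a score that the authors deposited on a scale not stated, and each list also holds a deposited display score. The H3K27ac column is a deposited fold enrichment (ratio), judged from its values. Both lists hold deposited −log10 q values. The lists held 0 columns of per-sample values.

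Gene intervals came from the RefSeq table of GRCh38.p14 (19974 protein-coding genes). At the listed positions 21.0% of gene ends fell inside H3K27ac peaks, and 2.99% when moved by 10 kb. Starts and strands came from RefSeq promoter windows, which matched 11422 genes with an interior. These windows left out chromosome 8, so its 283 members had no known start, strand or motif. Positions are 1-based. Overlap meant at least 1 bp, unless the summit is named. The members and gene lists were chosen with earlier results of these data known. Genes were named by rule: the 10 with the most members, the 5 densest with at least 5, the 5 members at either end of the signal range, the 5 just past the limit, the 10 with the highest H3K27ac fold enrichment, MAPT, and 2 genes per list; some of these are not reported here. Motifs were searched only in promoter windows, since no genome was used. Alternatives tried were other distances, signal limits, overlap definitions, merged entries, stricter H3K27ac lists, width terciles and autosomes only. Python 3.11.15, pandas 2.3.3 and scipy 1.17.1 were used, and functions were tested on simulated data.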

Additional observations from a re-analysis of the deposited data

How the results depend on the processing

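No paired analysis was possible because each list covers both replicates together, so leaving out a replicate was not run either. The motif share over all members and its alternatives need a genome and were not run. Of 47 alternatives, 31 left a result as it was. The number of members stayed within 1.5 times of 6863 under all 5 of its alternatives, from 5217 to 8142.

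The share of members overlapping H3K27ac (14.1%) was 15.2% with summits over 2 kb from gene ends, 8.04% by the summit, 11.5% with 100 bp either side of it, 13.2% against H3K27ac peaks with q under 0.01 and 9.56% against the strongest 50%. Without peaks within 1 kb of a RefSeq start, chosen after seeing the data, it was 11.5%. The difference from strong intragenic peaks (-5.79 points) was -0.971 with 100 bp either side of the summit (-2.47 to 0.457). Against the strongest 50% of H3K27ac peaks it was -2.22 (-3.66 to -0.847). It turned to 3.17 by the summit, 4.37 in the middle tercile of width (-0.715 to 7.82) and 8.74 in the highest. The lowest tercile held 0 strong peaks and gave no value. Strong peaks were at least 420 bp wide, so widths still differed within the middle tercile, and the cause was not tested. The difference from medium peaks outside genes (3.48 points) kept its sign and an interval above 0 in all 12 of its alternatives, the lowest being 1.82 without peaks near RefSeq starts. Peaks near starts missing from the promoter table could not be left out. Starts were known for 5628 of the 6863 members and for 6680 of the 7059 medium peaks outside genes.

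The density of 6.33 per Mb was 6.77 with a distance of 2 kb, 5.99 with 10 kb, 4.81 with a limit of 150, 7.51 with 250 and 5.61 in genes over 100 kb. The share in neuronal lists (3.66%) was, as a ratio of densities, 0.777 times that of all genes. Read depth is unknown and sets which weak peaks were listed.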

Other observations

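Long non-coding RNA genes covered 6.78% of the gene interiors and held 515 of the 6863 members, or 7.50% (95% Wilson interval 6.90 to 8.15%). Strong intragenic peaks were in them in 8.63% (7.62 to 9.75%).

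A member overlapped a microRNA hairpin in 1 case. It lay in COPZ2, a gene for a vesicle coat subunit, on chromosome 17 (48036970 to 48037314). Its signal value was 92.7, it met no H3K27ac peak, and it covered the whole hairpin of MIR152 (48037161 to 48037247, minus strand).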
